A study of Mus musculus with 6 samples.

Results

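Small nucleolar RNAs (snoRNAs) are short structured RNAs of the nucleolus, and 51 genes for them were measured among 19938 genes in embryonic mouse spinal cord. They are all the genes whose array rows carry a single symbol of the form Snora or Snord followed by a number in the platform annotation. The 51 genes comprise 20 box H/ACA genes (Snora) and 31 box C/D genes (Snord). They had 56 rows, and for the 5 genes with more than 1 row the row was selected on the highest mean over the 6 arrays, a measured value. A low signal of Snora73a and Snora73b in one knockout array was already known when the genes were chosen, so the pattern by array is described without a test.

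The study compared lumbar spinal cord of E15.5 embryos of strain SV129, 3 Tnc knockout samples, labelled TNC -/-, against 3 wild-type samples. Tnc encodes tenascin-C, a large glycoprotein of the extracellular matrix. Total RNA was hybridised to whole-transcript oligonucleotide arrays, 1 per sample, and all values are log2 signals after RMA, so that a difference of 1 is a doubling. Neither the knockout allele nor any pooling of embryos is given in the sources used here, and the labels call the samples biological replicates.

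Most mouse snoRNAs are cut from introns of host genes, many of which encode ribosomal proteins or translation factors. Others come from host genes whose spliced RNA has no known protein, such as the Snhg genes and Gas5. Box C/D snoRNAs pair with ribosomal RNA and guide 2′-O-methylation by fibrillarin (Fbl), and box H/ACA snoRNAs guide pseudouridylation by dyskerin (Dkc1). A few, among them Snora73 (also called U17), Snord118 (U8) and Snord22 (U22), act in cleavage of the ribosomal RNA precursor. Column purification of total RNA recovers very short RNAs poorly, and how much of each row's signal came from mature snoRNA was not tested.

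The array medians lay between 6.96 and 7.10. Tnc read 9.64, 9.76 and 9.47 in the knockout arrays 1 to 3, against 10.72, 10.22 and 10.02 in the wild-type arrays 1 to 3. The knockout arrays were thus all lower, by 0.69, with p = 0.10 by an exact permutation test (two-sided), and 3 arrays against 3 allow none smaller. Genes of neural tube (10.76 to 13.55) and lumbar Hox genes (10.20 to 12.31) were bright, whereas the 2 measured forebrain genes averaged 5.35 and 7.55, so 1 of them lay above the background guide given below. Sex was not balanced between the groups. Xist read 5.44, 11.68 and 5.38 in the knockout arrays, against 12.25, 12.01 and 11.60 in the wild-type arrays, and Y-linked genes averaged 8.20, 4.33 and 7.86 in the knockout arrays, against 4.32, 4.48 and 4.40 in the wild-type arrays. Knockout arrays 1 and 3 therefore differ from all 3 wild-type arrays in sex as well as in genotype, which cannot be told apart for them.

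The mean signals of the 51 snoRNA genes over the 6 arrays lay between 3.30 and 12.59. The signal of a row depends on its probes, so these signals do not rank the genes by RNA amount. As a guide to background, 95% of 1194 receptor genes of the olfactory and vomeronasal organs, which the cord should not express, lay below 6.13. Of the snoRNA genes, 37 of 51 lay above it, 15 of 20 box H/ACA genes and 22 of 31 box C/D genes. Snord57, from an intron of the snoRNP protein gene Nop56, read 11.63, 11.47 and 11.41 in the knockout arrays, against 11.59, 11.62 and 11.35 in the wild-type arrays. Snora52 read 12.57, 12.49 and 12.65 in the knockout arrays, against 12.52, 12.72 and 12.60 in the wild-type arrays, so both of these members varied little and their groups overlapped.

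The widest gaps between 1 array and the other 5 were those of Snora73a and Snora73b, which lie within Snhg3 on chromosome 4. Snora16a and Snora44, within the nearby gene Snhg12, were lowest in the same array. Neither host has a single-symbol row of its own here. Their promoters, 250 bases before and 50 after the annotated start, are shown because they belong to the transcripts that carry the 4 members. The sequences are from RefSeq on build GRCm38.p6, at chr4:132353637-132353936 on the minus strand for Snhg3 and chr4:132308428-132308727 on the plus strand for Snhg12, and capitals mark the motif TATANA:
Snhg3: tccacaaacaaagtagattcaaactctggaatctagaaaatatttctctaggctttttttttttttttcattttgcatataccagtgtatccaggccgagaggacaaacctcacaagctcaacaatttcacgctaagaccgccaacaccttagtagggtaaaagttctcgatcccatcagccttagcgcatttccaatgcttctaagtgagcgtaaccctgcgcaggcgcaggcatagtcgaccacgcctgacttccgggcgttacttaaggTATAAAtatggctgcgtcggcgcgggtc
Snhg12: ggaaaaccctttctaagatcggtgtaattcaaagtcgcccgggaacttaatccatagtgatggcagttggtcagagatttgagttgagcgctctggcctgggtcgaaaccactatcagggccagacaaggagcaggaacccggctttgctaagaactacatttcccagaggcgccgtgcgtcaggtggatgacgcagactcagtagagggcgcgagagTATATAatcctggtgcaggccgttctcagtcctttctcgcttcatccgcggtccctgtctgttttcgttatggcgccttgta
TATANA was searched on both strands and is held by 24.7% of 32851 promoter windows of this length. It begins at base 23 counted from the start in Snhg3 and 32 bases before the start in Snhg12, where it matches on both strands at the same place. TGACG, part of the site of CREB factors, is in 20.8% of windows and was found in Snhg12 only. TTCCGG, part of the site of ETS factors, is in 14.9% of windows and was found in Snhg3 only. These matches are descriptions of letters and do not show binding.

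Snora73a, which acts in early cleavage of the ribosomal RNA precursor, read 9.82, 8.43 and 9.96 in the knockout arrays, against 10.12, 9.97 and 9.63 in the wild-type arrays. Snora73b read 10.08, 8.49 and 10.19 in the knockout arrays, against 10.36, 10.29 and 9.68 in the wild-type arrays. For both, knockout array 2 alone was low, by 1.20 and 1.19 below the next lowest array. The other knockout arrays lay among the wild-type arrays. Snora73a and Snora73b are close copies of one another, so their rows may read each other's RNA and are not independent. Snora16a read 8.88, 8.19 and 9.27 in the knockout arrays, against 9.64, 9.59 and 8.70 in the wild-type arrays. It was lowest in knockout array 2 as well, 0.50 below the next lowest, and its wild-type array 3 was also low. Snora44 read 9.96, 9.33 and 9.98 in the knockout arrays, against 9.90, 9.98 and 9.80 in the wild-type arrays, and with a gap of 0.47 it lay just outside the threshold of 0.50 used for an array standing apart.

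By that threshold 5 of 51 snoRNA genes had 1 array apart from the other 5, where 0.567% of all genes did. Snora73a, Snora73b and Snora16a were apart in knockout array 2, downward, where 6 of 19938 genes (0.0301%) were. Snord47, from the growth-arrest transcript Gas5, was apart downward in wild-type array 3, where 0.0752% of genes were. It read 8.71, 8.73 and 8.65 in the knockout arrays, against 8.78, 8.75 and 8.03 in the wild-type arrays. Snord58b was apart upward in wild-type array 1, where 0.0802% of genes were, but all its values, 3.17, 3.15 and 3.31 in the knockout arrays and 3.85, 3.19 and 3.14 in the wild-type arrays, lay below the background guide. The 3 box H/ACA genes thus shared the array and the direction, and the 2 box C/D genes shared neither.

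**Figure D1:**
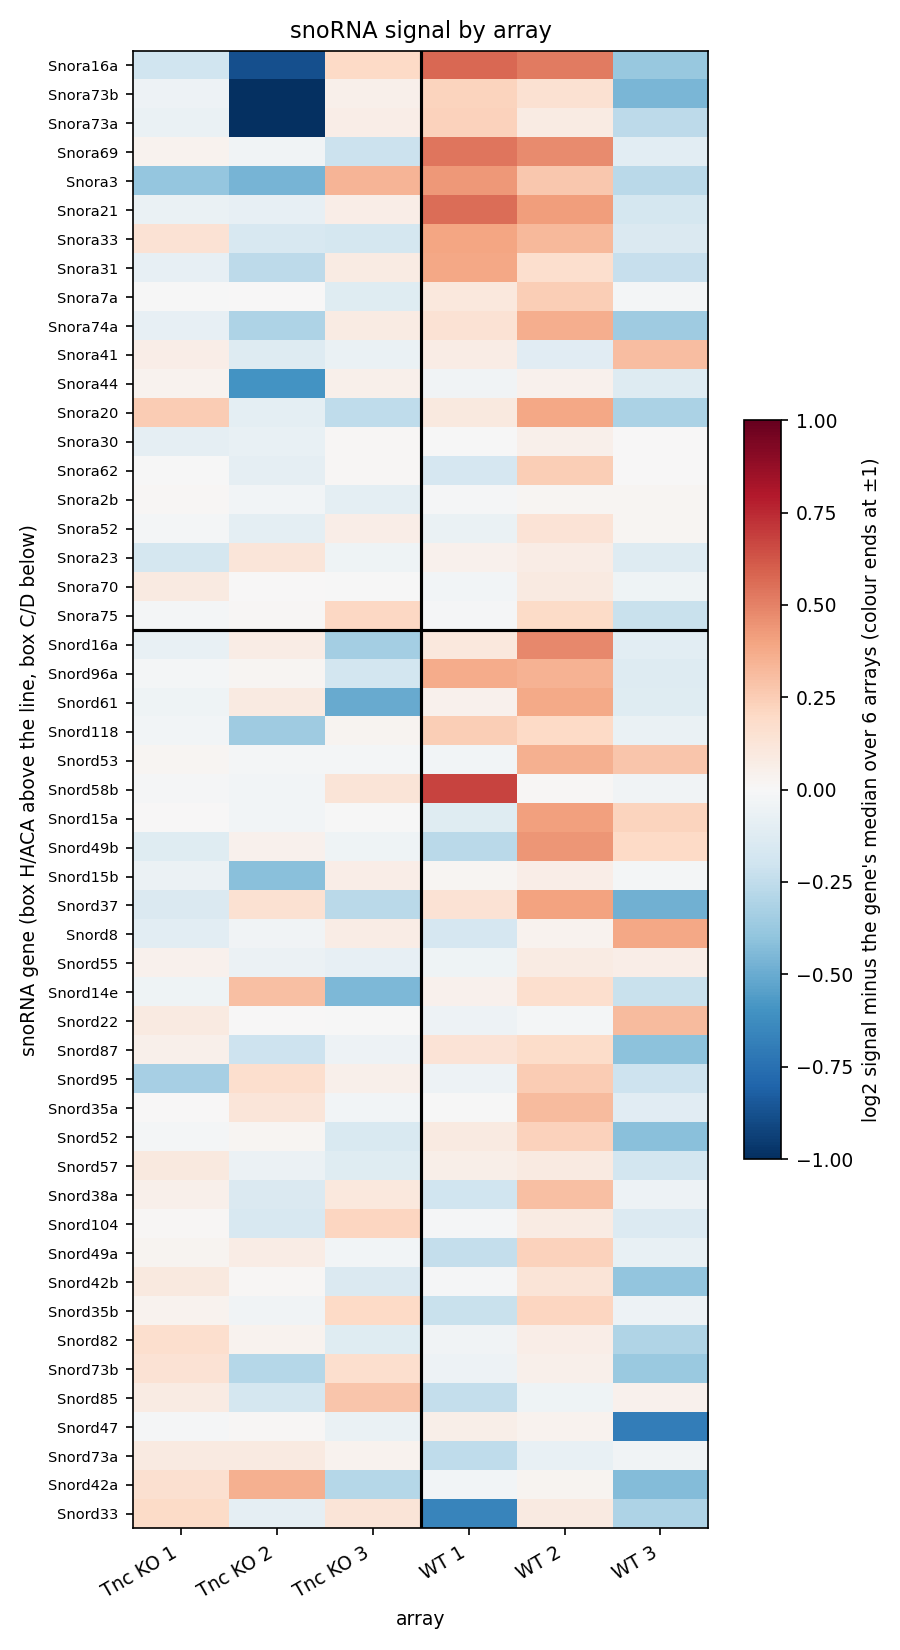
Colour shows the log2 signal of each of the 51 snoRNA genes (rows) in each array (columns, Tnc KO arrays left of WT arrays) minus that gene's median over the 6 arrays, with box H/ACA genes above the line and box C/D genes below it. Snora73a and Snora73b are darkest blue in Tnc KO array 2, and most genes are red in WT array 2.

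Other structured RNAs were read beside the members, from rows of RNAs that are not spliced mRNAs. Rmrp, the RNA of RNase MRP, which cuts the ribosomal RNA precursor, read 11.58, 11.08 and 11.77 in the knockout arrays, against 11.74, 11.94 and 11.61 in the wild-type arrays. Knockout array 2 was again the lowest, by 0.51, and Rmrp is 1 of the 6 genes apart there. Rpph1, the RNA of RNase P, read 12.96, 12.57 and 12.96 in the knockout arrays, against 13.08, 13.19 and 12.97 in the wild-type arrays. Terc, the telomerase RNA, which has a box H/ACA domain, read 10.63, 10.52 and 10.64 in the knockout arrays, against 10.78, 11.12 and 10.74 in the wild-type arrays. Its difference was -0.28, and it did not pass (limma with Benjamini-Hochberg adjustment, adjusted p = 0.999954, unadjusted p = 0.0363). Of 12 such RNAs, 6 were lowest in knockout array 2, where 12.3% of all genes were, and 7 were highest in wild-type array 2, where 14.2% were. Scarna13, a guide RNA of Cajal bodies, read 9.96, 9.86 and 10.67 in the knockout arrays, against 10.68, 10.37 and 10.11 in the wild-type arrays, and its groups overlapped. Scarna17, another of these guide RNAs, read 10.05, 10.61 and 10.37 in the knockout arrays, against 9.80, 10.79 and 10.50 in the wild-type arrays. Knockout array 2 was thus the highest of the knockout arrays in Scarna17, so the order of the arrays differed between these RNAs.

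**Figure D2:**
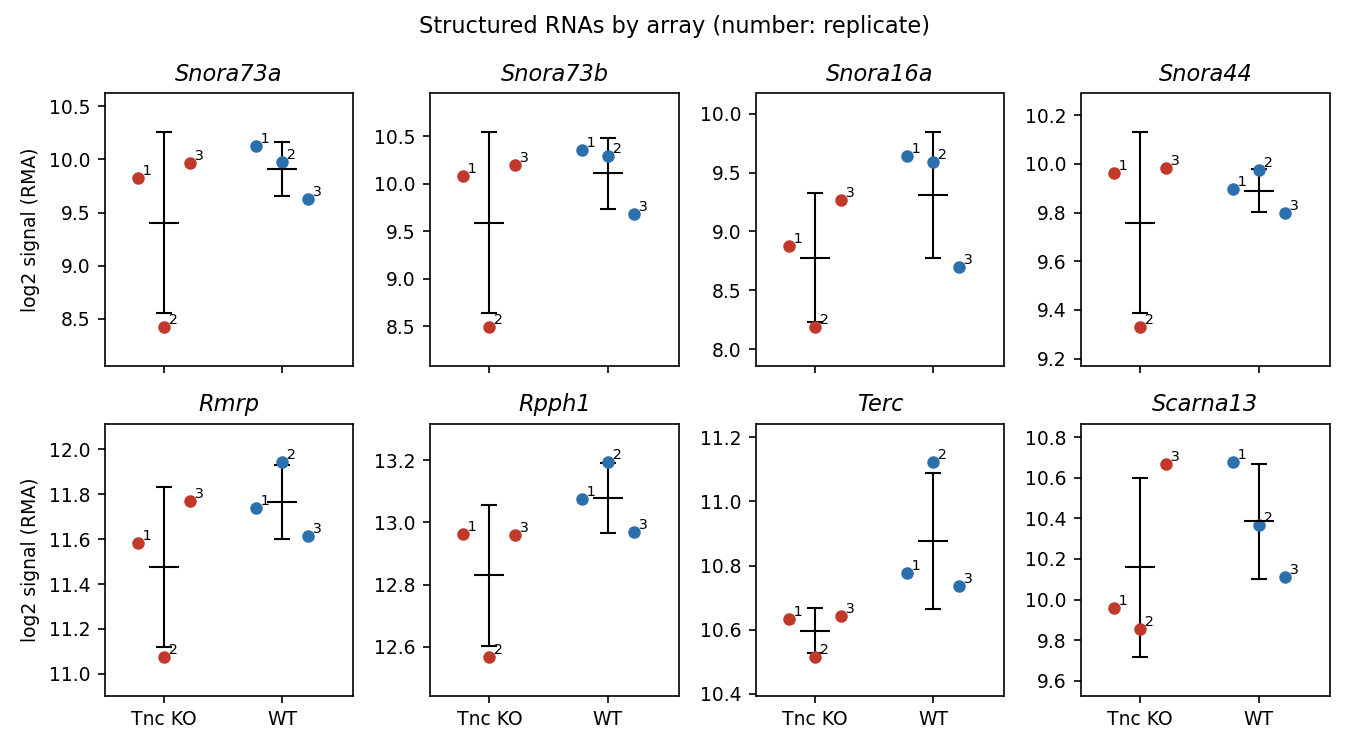
Log2 signal in each array (points, numbered by replicate) for 4 snoRNA genes and 4 other structured RNAs, Tnc KO left of WT, with mean and SD as bars (n = 3 each) and a separate log2 axis per panel. The 4 other RNAs were picked after their values were seen. Tnc KO array 2 is lowest in these 8 panels, at 8.43 for Snora73a, 8.49 for Snora73b and 11.08 for Rmrp, and in the Terc and Scarna13 panels it lies close to the next array.

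The members also shifted together in the wild-type arrays. In wild-type array 2, 47 of 51 snoRNA genes lay above their own median over the 6 arrays (all genes 52.2%), 22 were highest there (all genes 14.2%) and none was lowest (all genes 12.4%). In wild-type array 3, 39 of 51 lay below their own median (all genes 44.8%) and 16 were lowest (all genes 18.6%). The median deviation of box C/D genes was 0.01, 0.00 and -0.03 in the knockout arrays and -0.03, 0.17 and -0.11 in the wild-type arrays. That of box H/ACA genes was -0.02, -0.10 and 0.03 in the knockout arrays and 0.10, 0.18 and -0.14 in the wild-type arrays. Both classes were thus highest in wild-type array 2 and lowest in wild-type array 3, and box H/ACA genes were also low in knockout array 2, where 16 of 20 lay below their own median (all genes 52.2%) and 8 were lowest (all genes 12.3%). Over all genes the median deviation stayed between -0.02 and 0.01 in every array. Ribosomal protein genes, which include many hosts, were also one-sided in these arrays. Of 59, 54 lay below their own median in knockout array 2 (all genes 52.2%), 47 above it in wild-type array 2 (all genes 52.2%) and 49 below it in wild-type array 3 (all genes 44.8%). Their median deviations were 0.06, -0.07 and -0.02 in the knockout arrays and 0.01, 0.05 and -0.06 in the wild-type arrays. The 300 microRNA rows, which also read short RNAs, moved the other way in wild-type array 3. Their median deviation was -0.05, 0.00 and 0.05 in the knockout arrays and -0.06, -0.01 and 0.11 in the wild-type arrays, and 108 of 300 lay above the background guide. The 1194 receptor genes of the background guide shifted much as the microRNA rows did. Their median deviation was -0.02, -0.03 and 0.06 in the knockout arrays and -0.05, -0.003 and 0.10 in the wild-type arrays. The microRNA shift is thus not particular to short RNAs. The part of any of these groups in the snoRNA shift was not tested. The shifts between wild-type arrays were wider than the median differences between the genotypes given next.

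**Figure D3:**
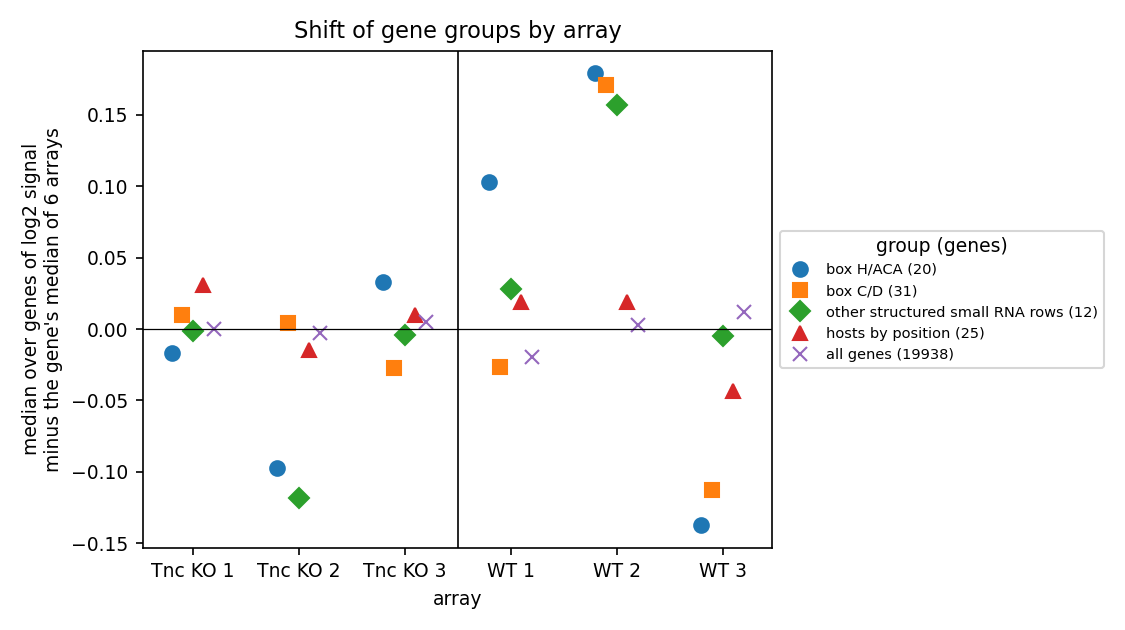
Median over the genes of a group of the log2 signal minus each gene's median of 6 arrays (y axis), by array (x axis, Tnc KO left of WT), for the 2 snoRNA classes, 12 other structured RNAs, 25 host genes and all 19938 genes. Box C/D and box H/ACA genes lie at 0.17 and 0.18 in WT array 2 and at -0.11 and -0.14 in WT array 3, and all genes stay near 0.

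Between Tnc knockout and wild type, none of the 51 snoRNA genes passed an adjusted p of 0.05 (limma with Benjamini-Hochberg adjustment over all genes), and none of the 19938 genes did (0.00%). At an unadjusted p under 0.05 there was 1 of 51, where 1.70% of all genes were. That gene was Snord73a, from an intron of Rps3a1, which read 5.05, 5.05 and 4.99 in the knockout arrays, against 4.71, 4.88 and 4.92 in the wild-type arrays. It was 1 of 51 whose groups did not overlap, where 5.82% of all genes did not (3.18% with the knockout above and 2.64% with it below). Its difference was 0.19 (95% interval 0.01 to 0.38), and limma with Benjamini-Hochberg adjustment gave an adjusted p of 0.999954 and an unadjusted p of 0.0433. All 6 of its values lay below the background guide. In bulk tissue, fewer cells that make a snoRNA and less of it per cell cannot be told apart.

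Box H/ACA genes mostly had lower means in the knockout, though none passed. Of the 20, 18 had a lower mean in the knockout, where 53.6% of all genes had, and their median difference was -0.14, against -0.01 over all genes. This lean was not particular to them. Of the 12 other structured RNAs 9 were lower (median -0.07), and 7 of the 12 averaged above the background guide. All 3 guide RNAs of Cajal bodies were lower (median -0.22), and 2 of them averaged above the guide. None of these RNAs passed. That median of -0.22 is the difference of Scarna8, whose values all lay below the guide, and Scarna17 differed by -0.02. Groups did not overlap in 3 of the 12, Terc, Rpph1 and Vaultrc5, all with the knockout below (all genes 2.64%). Vaultrc5 averaged 4.88 in the knockout arrays and 5.09 in the wild-type arrays, below the guide. The 2 box H/ACA genes that were higher were Snora70 (0.03) and Snora75 (0.08). The largest differences were those of Snora16a (-0.53), Snora73b (-0.52) and Snora73a (-0.50), in which knockout array 2 was low. Without that array they were -0.24, 0.03 and -0.01, with only knockout arrays 1 and 3 left, which differ from the wild-type arrays in sex as well. Snora69, in an intron of Rpl39, followed. It read 6.73, 6.66 and 6.48 in the knockout arrays, against 7.23, 7.17 and 6.59 in the wild-type arrays, a difference of -0.37 (95% interval -0.76 to 0.01). Snora3 read 8.10, 8.02 and 8.83 in the knockout arrays, against 8.92, 8.76 and 8.22 in the wild-type arrays, a difference of -0.32. Snora21 read 6.24, 6.22 and 6.37 in the knockout arrays, against 6.86, 6.73 and 6.13 in the wild-type arrays, a difference of -0.30. In all 3 of these genes wild-type arrays 1 and 2 were high, and wild-type array 3 lay among the knockout arrays or below them. Snora7a, in an intron of Rpl32, read 9.83, 9.84 and 9.71 in the knockout arrays, against 9.94, 10.09 and 9.82 in the wild-type arrays, a difference of -0.15. Snora74a, in Snhg4, read 7.66, 7.44 and 7.83 in the knockout arrays, against 7.88, 8.11 and 7.39 in the wild-type arrays, also a difference of -0.15. The groups of all 20 box H/ACA genes overlapped. The other 10 lower members differed by -0.26 for Snora33 to -0.03 for Snora23, and each 95% interval included 0. Without knockout array 2 the median difference of box H/ACA genes was -0.06, with the same limit of sex. Without wild-type array 2, 13 of 20 were lower (all genes 52.1%) and the median was -0.09.

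Box C/D genes were more evenly split. Of the 31, 20 were lower in the knockout (all genes 53.6%), with a median difference of -0.04. Without wild-type array 2, 12 of 31 were lower (all genes 52.1%) and the median was 0.08, so the sign of the class rested on that array. Snord33, from the ribosomal protein gene Rpl13a, had the largest difference of any box C/D gene. It read 8.25, 7.97 and 8.19 in the knockout arrays, against 7.40, 8.15 and 7.76 in the wild-type arrays, a difference of 0.37 (95% interval -0.04 to 0.78) with overlapping groups. Snord16a, in an intron of Rpl4, read 6.96, 7.11 and 6.70 in the knockout arrays, against 7.14, 7.52 and 6.94 in the wild-type arrays, a difference of -0.27. Snord37, in an intron of Eef2, read 5.87, 6.17 and 5.75 in the knockout arrays, against 6.16, 6.42 and 5.54 in the wild-type arrays. Its difference of -0.11 was smaller than the SD of 0.45 among the wild-type arrays. Of the precursor-processing RNAs, Snord118 read 4.80, 4.48 and 4.85 in the knockout arrays, against 5.07, 5.03 and 4.76 in the wild-type arrays, all below the background guide. Snord22, from Snhg1, read 5.80, 5.71 and 5.70 in the knockout arrays, against 5.66, 5.69 and 6.02 in the wild-type arrays, also below it. Snord53, in an intron of Wdr43, was well above the guide. It read 9.22, 9.18 and 9.18 in the knockout arrays, against 9.17, 9.56 and 9.47 in the wild-type arrays, a difference of -0.21 in which wild-type array 1 lay with the knockout arrays. Snord42a, in an intron of Rpl23a, read 6.50, 6.69 and 6.06 in the knockout arrays, against 6.31, 6.37 and 5.91 in the wild-type arrays, a difference of 0.22. Snord73a, described above, stood at 0.19, and the other box C/D genes lay between -0.26 for Snord96a and 0.18 for Snord47.

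The median difference of box C/D genes exceeded that of box H/ACA genes by 0.11, where the gap between the class medians had a within-group SD of 0.08 over the arrays. The difference was 0.02 without knockout array 2, where genotype and sex cannot be told apart. The 4 members of Snhg3 and Snhg12, all box H/ACA, were lowest in that array. Without those 4 members the box H/ACA median difference was -0.11.

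**Figure D4:**
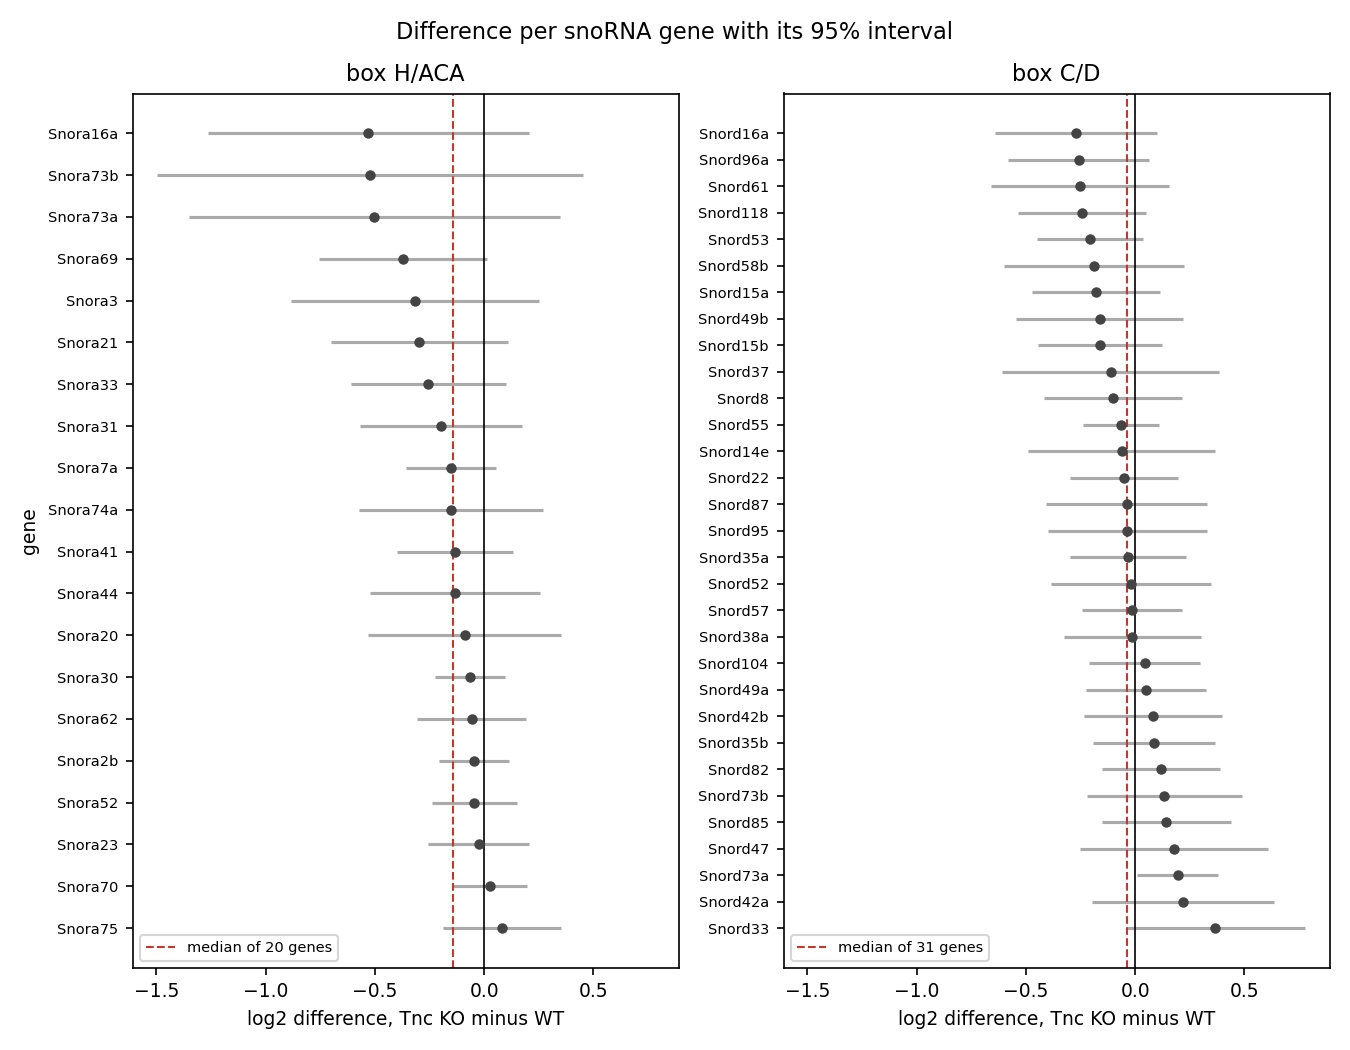
Log2 difference, Tnc KO minus WT (x axis), for each snoRNA gene (point) with its 95% limma interval (bar), ordered by difference within each class, with the class median dashed. Most box H/ACA points lie left of 0, and every interval but that of Snord73a (0.01 to 0.38) includes 0.

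In most pairs the measured host gene varied less over the arrays than the snoRNA gene within its span. By position in the RefSeq table, 50 of 51 members lay within another gene, all but Snord118. Of 43 hosts, 25 were measured, and these hosted 29 members. A host is defined here by span alone, with strand and introns not checked, so a pair need not be a true host and its snoRNA. Snord87 lay within both Mcmdc2 and Snhg6, and only Mcmdc2 was measured. In 27 of the 29 pairs the snoRNA gene had the larger SD over the 6 arrays, with a median SD of 0.20 for those members and 0.08 for the hosts, against 0.12 over all genes. Snora3 had an SD of 0.40, and its host Rpl27a 0.06. Snord37 had an SD of 0.32, and its host Eef2 0.03. The mean signals of the hosts lay between 5.10 and 13.28, 24 of 25 above the background guide. The part of signal in their lower spread was not tested.

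None of the hosts passed the test of genotype. Their median difference was 0.01 and 10 of 25 were lower in the knockout. Rpl27a differed by 0.01, Rpl23 by 0.02, Rpl4 by -0.02, Eef2 by 0.03 and Gas5 by -0.07. The snoRNAs they carry, in the same order, differed by -0.32 for Snora3, -0.30 for Snora21, -0.27 for Snord16a, -0.11 for Snord37 and 0.18 for Snord47, and none of these differences passed the test. Members that share a host are not independent, and 10 hosts carried 2 members each. In 8 of the 10 both members had the same sign, with a median gap between them of 0.10. The widest gap was in Rpl13a, where Snord33 stood at 0.37 and Snord35a at -0.03.

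**Figure D5:**
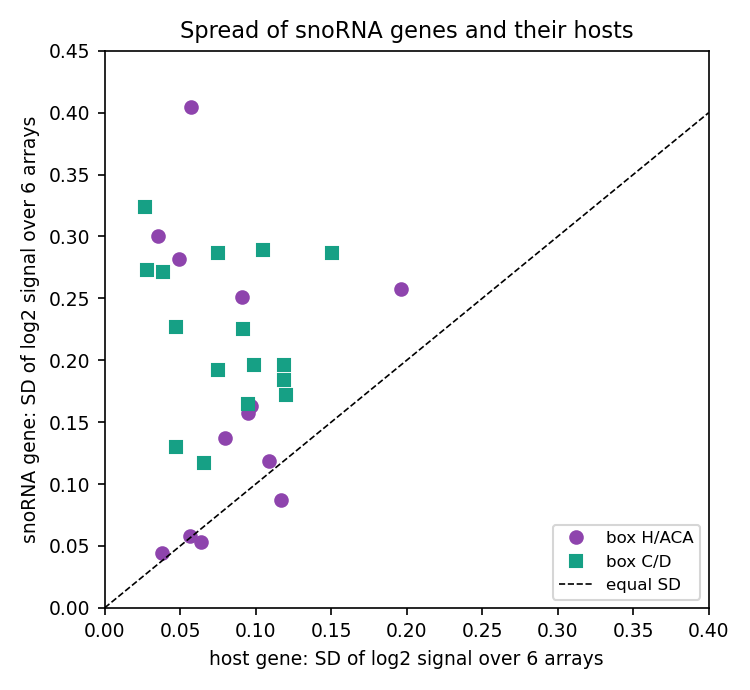
SD of log2 signal over the 6 arrays of each snoRNA gene (y axis) against that of its host gene (x axis) for the 29 pairs with a measured host, box H/ACA as circles and box C/D as squares, with a dashed line of equal SD. Of the pairs, 27 lie above the line.

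None of the genes for proteins that bind and assemble snoRNAs passed the test. Among the 4 measured box C/D proteins 3 were higher and 1 lower, none passing, with a median difference of 0.03. Fbl, the methyltransferase, differed by -0.12, and Nop58, a core protein, by 0.06. The 6 box H/ACA proteins split evenly, 3 higher and 3 lower, and their median difference was -0.01. Naf1 and Shq1, which help assemble the box H/ACA particle, differed by -0.13 and 0.05. Among 18 assembly factors and nucleolar chaperones 9 were higher and 9 lower, none passing. Coil, the Cajal body protein coilin, differed by -0.27, which did not pass (limma with Benjamini-Hochberg adjustment, adjusted p = 0.999954, unadjusted p = 0.0484). The 59 cytosolic ribosomal protein genes had a median difference of -0.01, with 27 higher and 32 lower.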

How the data were processed

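Per the submitters' processing notes, the authors made the deposited log2 values with RMA, which corrects background, equalises signal distributions between arrays and summarises the probes of a row. No source used here gives the RMA version, the genome build of the array or scan dates. Per the labels' protocols, total RNA was purified on RNeasy columns and labelled with whole-transcript kits. The table of 35557 rows was joined to the platform annotation: 21789 rows had 1 symbol, 1621 several and 12147 none listed. Symbols were updated against RefSeq (GRCm38.p6), and the row of highest mean stood for each of 19938 genes. Another 41 rows naming a snoRNA carry several symbols and stayed out.

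Knockout and wild type were compared with limma 3.58.1 in R 4.3.3 (lmFit, eBayes, group as the only term), two-sided, with Benjamini-Hochberg adjustment over all genes and a threshold of 0.05. Lists are described by counts and medians. On simulated data with noise independent between genes, 40% of genes changed by 0.5 and 94% of genes changed by 1 were recovered. Another 5 genes, left unchanged, were called falsely. The changed genes were drawn from all genes, whose median SD over the 6 arrays was 0.12. That median was 0.21 for snoRNA genes and 0.25 for box H/ACA genes, so recovery for the members was not measured. The members and lists were chosen with earlier results of these data known. Genes named are Tnc, Snora73a, Snora73b, the 8 snoRNA genes of largest difference, the 6 of largest SD, those with 1 array apart, their hosts, and 2 genes of smallest p per companion list. Snora44, Snora52, Snora70, Snora75, Snord57, Snord73a, Snord35a, Rmrp, Rpph1 and other structured RNAs were named after their values were seen. Snora7a, Snora23, Snora33, Snora74a, Snord22, Snord42a, Snord53, Snord87, Snord96a, Snord118, Mcmdc2, Masp2 and 5530400C23Rik also fall outside the rules above and were named with their values known. Host genes come from gene positions in the RefSeq table, with strand and introns not checked. The number of arrays limits the precision.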

Additional observations from a re-analysis of the deposited data

How the results depend on the processing

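Alternatives included each array left out, replicate number as a block, other normalizations, other row choices, a filter on dim genes, a sex term, an intensity trend and array weights. The count of snoRNA genes past the threshold was 0 under each that was run, and over all genes it was 4 without knockout array 2 and 0 otherwise. Without that array only knockout arrays 1 and 3 were left, which differ from the wild-type arrays in sex as well. Genotype and sex therefore cannot be told apart in that setting, for the 4 genes or for the medians below. Leaving out 1 array gave median differences of -0.13 to 0.00436 for all snoRNA genes, -0.10 to 0.08 for box C/D, -0.25 to -0.06 for box H/ACA and 0.0155 to 0.164 for box C/D minus box H/ACA. The sex term, which leaves 1 knockout array against the wild type, gave -0.28 for box H/ACA and 0.20 for the class difference. With 1 array left out, box C/D genes lower in the knockout numbered 12 to 21 and box H/ACA genes 13 to 19, where 46.2% to 57.2% of all genes were lower. Groups not overlapping numbered 4 to 17 of 51 with 1 array left out, which leaves fewer arrays to separate. Of all genes, 11% to 23.5% did not overlap in those settings. The 17 were without wild-type array 3, against 23.5% of all genes. The count was 2 after renewed quantile normalization and 0 with dim genes dropped. Arrays apart numbered 11 at a gap of 0.3 and 2 at a gap of 1. Shares of all genes for these last 4 counts are not given here, so they are not read against them. The labels give replicate numbers but no pairing of knockout with wild-type samples. Deviations of same-numbered arrays from their group means correlated by 0.35, -0.07 and 0.45. For 2 knockout arrays the best match was the wild-type array of the same number, so pairing was not settled. With the replicate block the medians stayed at -0.064, -0.0366 and -0.143, which the balanced design fixes in advance.

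Of 32 named genes, 14 reversed sign somewhere among 476 recomputed values, none of them had passed the test, and the cause was not tested. With 1 array left out, Snora73b ran from -0.822 to 0.0268, Snord37 from -0.364 to 0.077, Snord47 from -0.0681 to 0.306, Snord58b from -0.315 to 0.0403, Rpl27a from -0.0356 to 0.0425, Rpl4 from -0.0309 to 0.00197, Gas5 from -0.176 to 0.00555, Naf1 from -0.228 to 0.0393, Shq1 from -0.0304 to 0.0931 and Scarna17 from -0.303 to 0.193. With the sex term, Snord37 was at 0.126, Rpl27a -0.0234, Rpl23 -0.0265, Eef2 -0.00837, Naf1 0.0377, Shq1 -0.00676 and Scarna17 0.248. With array weights, Snord33 was at -0.0146, Snord47 -0.0159, Rpl27a -0.0595, Rpl23 -0.0283, Eef2 -0.00204 and Shq1 -0.0542. With the row of lowest mean, Rpl23 was at -0.047, Gas5 0.0733 and Fbl 0.0106, and with the mean over rows Rpl23 was at -0.0139. With median centring, Rpl4 was at 0.0116 and Scarna17 0.00968.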

Other observations

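The 6 genes apart downward in knockout array 2 were Snora73a, Snora73b, Snora16a, Rmrp, Masp2 and 5530400C23Rik. All but 5530400C23Rik lie on chromosome 4, which holds 5.83% of all genes with a listed chromosome. Tnc lies on it too. The fall was seen in 1 knockout array, and a link to position was not tested. This is a description only, since the fall of Snora73a and Snora73b was known when the genes were chosen, these are near-copies in 1 host, and Snora16a lies in a host close by. Masp2, a complement protease gene, read 7.03, 6.44 and 7.68 in the knockout arrays, against 7.17, 7.55 and 7.36 in the wild-type arrays. Of 7 snoRNA genes on chromosome 4, 4 were lowest in knockout array 2 (all genes 12.3%), and these are the members of Snhg3 and Snhg12.

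Rows that name a snoRNA with another gene were kept out of the counts above and formed 15 symbol sets. Of the 7 sets with a box H/ACA name, 6 were lower in the knockout (all genes 53.6%), with a median difference of -0.13. The sets naming Snora34, Snora19, Snora36b and Snora24 averaged below the background guide in both groups. The remaining ones share their row with Rpl12, Eif5 or Snhg7, and the part of the signal from the snoRNA was not tested. Of the 8 other sets, 2 were lower (all genes 53.6%), with a median of 0.02. The largest set was the Snord116 cluster, an imprinted array of box C/D snoRNAs expressed in neurons, with 24 rows of which 6 were distinct. It averaged 11.87 in the knockout arrays and 11.83 in the wild-type arrays.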
